A study of Homo sapiens with 20 samples.

Results

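CTCF binding was mapped by chromatin immunoprecipitation and sequencing (ChIP-seq) in IMR90 cells, a human lung fibroblast line, after transfection with control siRNA or with a pool of siRNAs against CTCF. The experiment comprises 4 of the 20 samples of the series, namely 2 libraries of cells given nontargeting (NT) siRNA and 2 libraries of cells given CTCF siRNA, all made with the standard ChIP protocol. The siRNAs were used at 20 nM, the labels give 144 h as the time point, and both groups share the transfection itself. The study describes such libraries as biological replicates. The comparison asks which CTCF sites of these fibroblasts still yield a peak once CTCF has been depleted. CTCF protein and RNA were not analysed here, so the depth of the depletion is not known from these values.

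CTCF is a zinc-finger protein that binds a long, partly conserved DNA motif. It stops cohesin as cohesin extrudes chromatin loops, and it thereby marks loop anchors and domain borders and can insulate enhancers from promoters. Many of its sites are occupied in most tissues, among them sites at imprinted loci, in the HOX clusters and at protocadherin promoters.

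The siRNA pool is shown here because it defines the treated group. Each of the sequences below is written with the 5′ end first, in the sense direction of the CTCF transcript, and lies in a coding exon of CTCF on the plus strand of chromosome 16 in hg19.

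siRNA 1, chr16:67644951-67644969: GAUGAAGACUGAAGUAAUG

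siRNA 3, chr16:67644838-67644856: GAAGAUGCCUGCCACUUAC

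siRNA 4, chr16:67645048-67645066: GAACAGCCCAUAAACAUAG

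All 3 fall within the same short stretch of the coding sequence. The remaining member, listed in the labels with 18 nucleotides where the others have 19, had 0 exact matches on either strand of the CTCF gene and is not printed.

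The control libraries held 35717 and 36887 peaks on chromosomes 1 to 22 and X, and the CTCF siRNA libraries held 19177 and 18533. The groups did not overlap, and the mean number of peaks fell from 36302 ± 827 to 18855 ± 455 (SD, n = 2 libraries each), which is 51.9% of the control number. With 2 libraries against 2 the two-sided exact permutation test cannot go below p = 0.333, the value it gave, so no comparison of libraries here can pass a threshold of 0.05. Read totals are not part of peak lists. The genome-wide background that the peak caller used, recovered from the listed values as reads expected at a position, was 0.898 and 0.679 in the controls and 1.09 and 0.882 in the CTCF siRNA libraries, with group means of 0.789 and 0.986, and the study's reporting form lists more reads for both CTCF siRNA libraries than for either control. At that background the smallest summit pileup (the number of extended reads at the peak's highest point) to be called was 6 and 5 reads in the controls and 8 and 6 reads after CTCF siRNA. Divided by the background, these limits were 6.68, 7.37, 7.33 and 6.81 times the background, a range in which the groups overlapped.

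Peaks that were called after CTCF siRNA lay almost entirely within the control binding pattern. Among peaks of CTCF siRNA replicate 1, 96.4% and 97.4% were shared with control replicates 1 and 2, and among those of CTCF siRNA replicate 2 the shares were 95.5% and 96.7%. In the opposite direction, 51.7% and 49.5% of control replicate 1 peaks were found in CTCF siRNA replicates 1 and 2, whereas 85.6% were found in control replicate 2. The corresponding shares of control replicate 2 peaks were 50.6%, 48.5% and, in control replicate 1, 82.9%. The loss therefore exceeded the difference between control libraries in each of the pairings.

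A control site was defined as merged control peaks (at least 1 bp of overlap) with a peak in both control libraries, which gave 30522 sites. A kept site retained a peak in each of the CTCF siRNA libraries, and every other control site counts as lost. There were 15692 kept sites, 51.4% of all control sites (95% Wilson interval 50.9 to 52.0, for counting error only). A further 4481 sites (14.7%) had a peak in 1 CTCF siRNA library, and 10349 sites, 33.9%, had a peak in neither. Considered singly, replicate 1 of the CTCF siRNA group retained 18312 control sites and replicate 2 retained 17553 (57.5%). When every list was shortened to the 18533 peaks with the smallest p-values, 81.2% of the control sites thus formed were kept and 7.44% had a peak in neither library, and the shortened control lists hold only their strongest peaks. A missing peak says that the signal fell below the calling limit. It does not say that CTCF had left the site, and in bulk ChIP fewer bound cells and less frequent binding per cell cannot be told apart.

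Control fold enrichment separated the sites by their fate. Fold enrichment, as the peak caller gives it, is the summit pileup plus 1 divided by the local background plus 1. With backgrounds near 1 read it is well below the plain ratio and depends on the depth of the library. The strength of a site is the mean fold enrichment over the 2 control libraries. Kept sites had a median strength of 19.4 (quartiles 14.6 and 25.5), sites with a peak in 1 CTCF siRNA library had 11.5 (8.85 and 14.9), and sites with a peak in neither had 8.02 (6.50 and 10.2). Both control libraries gave the same order, with medians of 18.96, 11.2 and 7.90 in control replicate 1 and 19.7, 11.8 and 8.08 in control replicate 2. The median strength of kept sites was 2.19 times that of lost sites, and this ratio was 2.16 when kept was decided from CTCF siRNA replicate 1 alone, 2.15 from replicate 2 alone and 1.39 in the shortened lists. The quartiles of kept sites and of sites with a peak in neither did not overlap, although the full ranges did, since kept sites ran from 1.71 to 74.7 and sites with a peak in neither from 3.12 to 26.7.

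**Figure D1:**
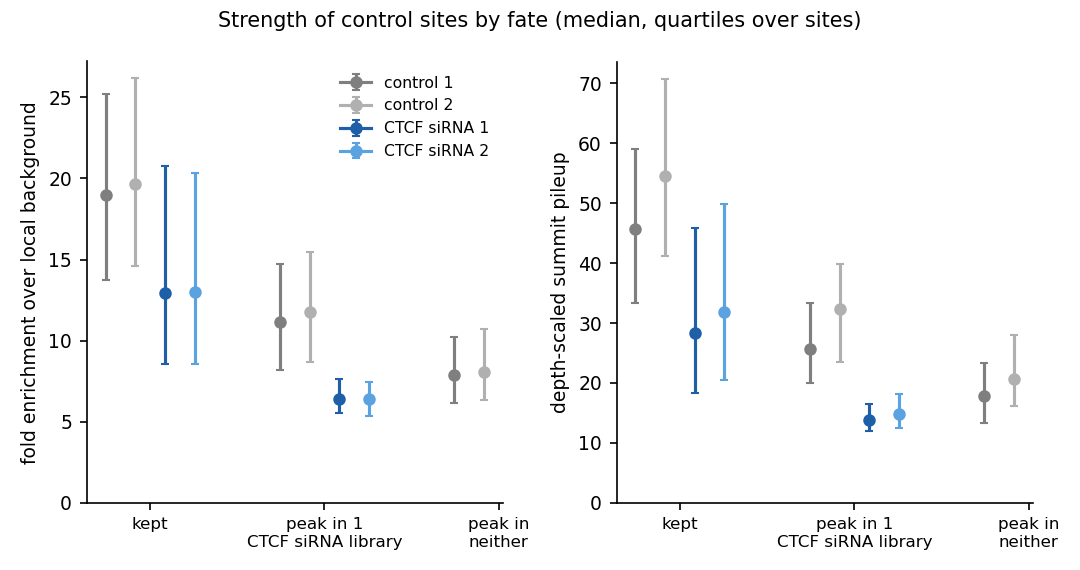
Fold enrichment (left) and depth-scaled summit pileup (right, pileup divided by the genome-wide background of the library) of control sites grouped by whether they had a peak in both, 1 or neither of the CTCF siRNA libraries. Points are medians over sites in each library and bars are quartiles. In the kept group both control libraries (18.96 and 19.7 by fold enrichment) lie above both CTCF siRNA libraries (12.9 and 13.01), and control values step down from left to right.

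Ranked by strength and divided into deciles of 3052 or 3053 sites, the control sites went from nearly complete loss to nearly complete retention. The share kept was 8.52% in decile 1 (median strength 5.71) and 8.75% in decile 2, then 14.7%, 24.5% and 41.9% up to decile 5. From there it was 57.4%, 76.5%, 86.7% and 95.5%, and it reached 99.5% (99.2 to 99.7) in decile 10 (median strength 32.0). The difference between deciles 10 and 1 was 91.0 percentage points, and it was 86.2 and 86.6 points with CTCF siRNA replicates 1 and 2 taken singly. In the shortened lists, which hold few weak control peaks, it was 44.1 points. In decile 10, 3039 of 3053 sites were kept and 0 had a peak in neither library, which allows a share of up to 0.126% by the Wilson interval. In decile 1, 2496 of 3052 sites, 81.8%, had a peak in neither.

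Weak peaks were also found again less often when no CTCF had been removed, which is the background for this gradient. Of the control replicate 1 peaks, decile 1 by fold enrichment was found in control replicate 2 at 47.0% and decile 10 at 100%. Control replicate 2 peaks were found in control replicate 1 at 39.8% and 100%. Against CTCF siRNA replicate 1 the same deciles of control replicate 1 peaks gave 9.94% and 99.6%, and against replicate 2 they gave 10.4% and 98.8%. The gap was widest in decile 4 for each control library against each CTCF siRNA library. There 85.6% of control replicate 1 peaks were found in the other control, against 25.3% and 23.5% in the CTCF siRNA libraries. In deciles 8 to 10 between 99.9% and 100% of control peaks were found in the other control.

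**Figure D2:**
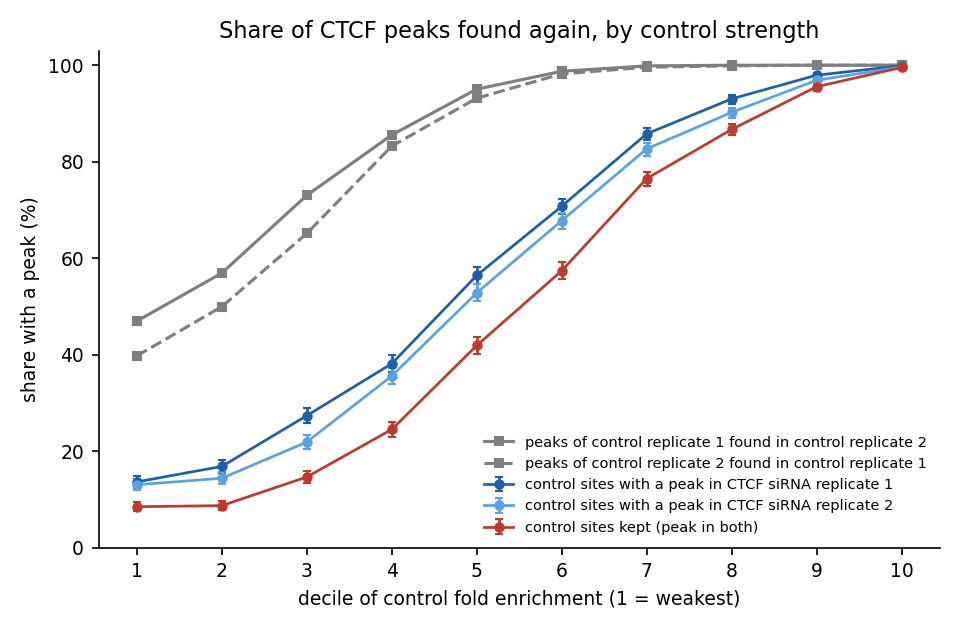
Share of CTCF sites or peaks (%, vertical axis) found again, against deciles of control fold enrichment (horizontal axis, 1 = weakest). Grey lines give peaks of each control library, ranked within it, found in the other, blue lines control sites with a peak in each CTCF siRNA library, and the red line sites kept in both, with 95% Wilson intervals on the coloured lines. Control against control reaches 95.04% and 93.2% in decile 5, where 41.9% of control sites were kept.

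Sites that stayed were nevertheless weaker. At the 15692 kept sites the median fold enrichment was 18.96 and 19.7 in the control libraries and 12.9 and 13.01 in the CTCF siRNA libraries, so the groups did not overlap. The median log2 ratio of CTCF siRNA over control was -0.46 per site, which leaves 72.7% of the control fold enrichment with the added 1 in both terms, and the 4 pairings of libraries gave medians between -0.50 and -0.42. Between the 2 controls the median log2 ratio was -0.07, and between the 2 CTCF siRNA libraries it was 0.02. The two-sided exact permutation test of the library medians gave p = 0.333, the lowest it allows. Depth-scaled pileup, which has no added 1 and does not divide by the local background, had medians of 45.6 and 54.5 in the controls and 28.4 and 31.8 after CTCF siRNA, a median log2 ratio of -0.63 and 64.7% left. It was higher after CTCF siRNA at 2118 kept sites (13.5%). Fold enrichment was higher after CTCF siRNA at 3768 kept sites (24.01%). The local background took different steps above its genome-wide value in the groups, and its part in these differences was not tested. Since a site had to pass the calling limit to be kept, these values describe kept sites and not all control sites.

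In contrast, the median fold enrichment over all peaks of a library did not separate the groups, at 11.1 and 11.3 in the controls and 10.9985 and 11.3 after CTCF siRNA. The difference of the group means was -0.05, smaller than the SD of 0.20 between CTCF siRNA libraries.

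The share of pileup left at kept sites differed along the range of strength. To keep the ranking apart from the comparison, sites were ranked by the pileup of 1 control library and the CTCF siRNA libraries were compared with the other control. Ranked by control replicate 1, kept sites of decile 6 had a median of 49.8% left in CTCF siRNA replicate 1 and 55.8% in replicate 2, against 67.4% and 70.8% in decile 10. Ranked by control replicate 2, the values were 58.8% and 67.9% in decile 6 and 83.3% and 86.3% in the highest. Thus the strongest sites kept more of their pileup than those of the middle range in each of the 4 combinations. In decile 1 few sites were kept (87 and 125 of 3052 sites), and these are the sites that passed the limit.

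**Figure D3:**
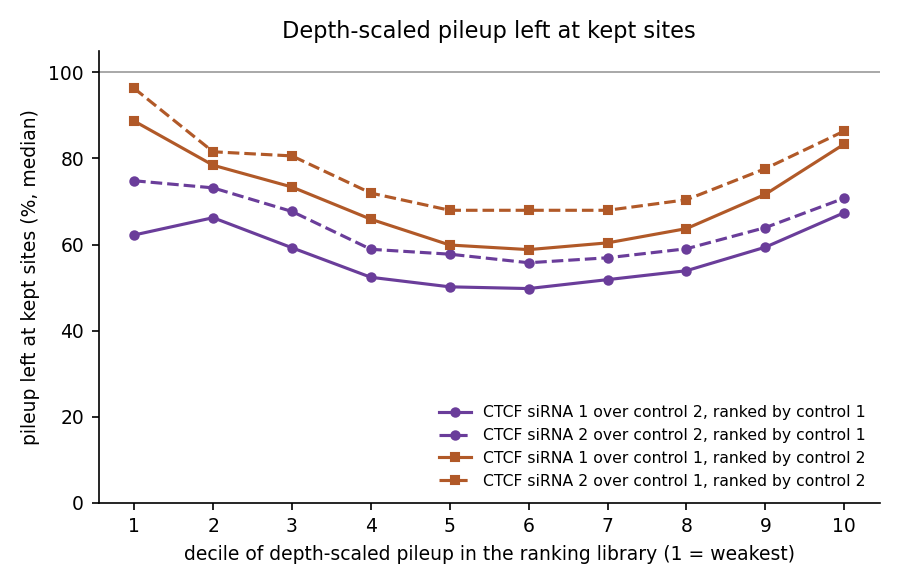
Median share of depth-scaled summit pileup left at kept sites (%, vertical axis) against deciles of pileup in the library used for ranking (horizontal axis, 1 = weakest). Each line is 1 CTCF siRNA library divided by the control library that was not used for ranking, and the grey line marks 100%. All lines are lowest within deciles 5 to 7 and higher in decile 10, where they lie between 67.4% and 86.3%.

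Kept sites had broader control peaks. The median width in the controls was 409 bp at kept sites, 343.5 bp where 1 CTCF siRNA library had a peak and 291 bp where neither had one. Kept sites were 102.5 bp wider than lost sites at the median, 102.5 and 102 bp wider with either CTCF siRNA library alone, and 45.5 bp wider in the shortened lists. Width and strength are read from the same peak, and within deciles of strength the difference averaged 27.7 bp. It fell from 65.5 bp in decile 1 to 6.75 bp in decile 8. In deciles 9 and 10, which held 136 and 14 lost sites, it was 27.5 and 56 bp. At the same kept sites the median peak width itself was 400 and 406 bp in the controls and 343 and 340 bp after CTCF siRNA.

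Kept sites lay closer to other control sites. The median distance to the nearest control site was 17734.5 bp for kept sites and 22280.5 bp for lost sites, a difference of -4546 bp, with -5170 and -3786 bp for the CTCF siRNA libraries taken singly. Within deciles of strength it averaged -2293 bp, with deciles weighted alike, and in the shortened lists it was -9311.5 bp. Kept sites lay closer in each of deciles 1 to 9. In decile 10, which held 14 lost sites, the medians were 15883 bp for kept and 7554.5 bp for lost sites. Sites whose nearest neighbour was 1000 to 5000 bp away were kept at 56.7% (55.4 to 58.1), and those more than 200000 bp from any other at 35.7% (32.4 to 39.2). Strength moved with spacing, with medians of 14.2 and 10.0 in these classes. The shares that the deciles of strength alone would give were 54.8% and 37.4%, so most of the range in kept share ran alongside strength. The closest class, under 1000 bp, did not continue the trend, at 47.6% (44.1 to 51.1) of 765 sites and a median strength of 12.1.

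A site whose nearest neighbour was kept was itself kept at 54.2%, against 48.3% where the neighbour was lost. Strength alone would give 52.8% and 49.8%. Each CTCF siRNA library showed the same order, with peaks at 62.6% against 57.2% in replicate 1 and at 59.8% against 55.0% in replicate 2.

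With the lost sites removed, the median gap between successive sites on a chromosome rose from 43490 to 78816 bp, and the number of gaps longer than 1000000 bp from 214 to 380. The longest run of sites without a peak was picked out after its values were seen. On chromosome 10, between 18601693 and 20038383, 11 successive sites had a peak in neither CTCF siRNA library. Their median strength was 6.78, and the genes there include MALRD1 and PLXDC2.

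The share of kept sites differed between chromosomes by up to 18.3 percentage points. It was highest on chromosome 19 (62.2%, 59.2 to 65.1, of 1050 sites), followed by chromosome 17 (57.6%, 55.0 to 60.2) and chromosome 11 (55.5%, 53.2 to 57.9). The lowest shares were on chromosome 13 (43.9%, 40.4 to 47.5), chromosome X (44.6%, 41.5 to 47.7) and chromosome 4 (45.9%, 43.3 to 48.5). The 3 highest and the 3 lowest did not overlap in their intervals. Both CTCF siRNA libraries placed chromosome 19 first and chromosome 13 last, but the spread was 22.7 points in replicate 1 and 13.4 points in replicate 2.

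Part of this pattern went with strength. The median strength was 14.04 on chromosome 19, 14.4 on chromosome 17 and 13.9 on chromosome 11, against 12.1 on chromosome 13, 11.8 on chromosome X and 12.3 on chromosome 4. The deciles of strength alone would give 53.9% on chromosome 19 and 47.6% on chromosome 13, which leaves 8.28 points above and 3.65 points below for the observed shares. For chromosome X the difference was -0.85 points, and for chromosomes 17, 11 and 4 it was 2.94, 1.74 and -1.42 points. Across the 23 chromosomes the kept share rose with coding genes per megabase (Pearson r = 0.83, Spearman rho = 0.86) and with median strength (r = 0.88, rho = 0.86). It likewise rose with control sites per megabase (r = 0.90) and fell with the median distance to the nearest site (r = -0.92). With the median GC content of the sites r was 0.81, and it was 0.91 and 0.64 for CTCF siRNA replicates 1 and 2 alone. These are descriptions over chromosomes of the same 4 libraries, which share depth and base composition.

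**Figure D4:**
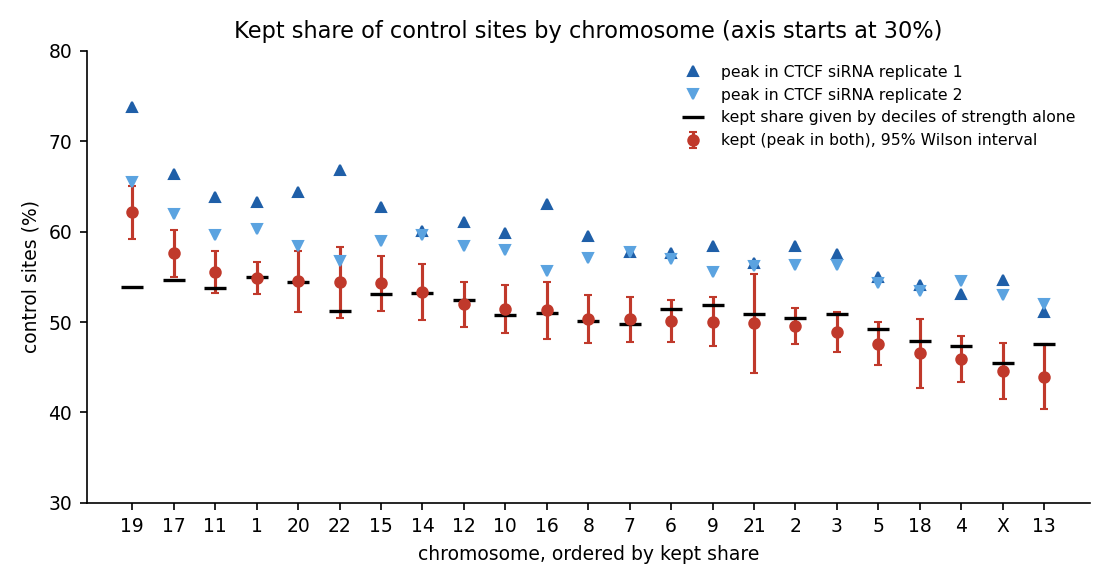
Share of control sites (%, vertical axis, starting at 30%) kept on each chromosome (red, with 95% Wilson interval), with a peak in CTCF siRNA replicate 1 or 2 (triangles), and the kept share that the deciles of strength alone would give (black dashes). Chromosome 19 lies highest, at 62.2% against 53.9% given by strength, and chromosome 13 lowest, at 43.9% against 47.6%.

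The CTCF siRNA libraries differed from each other with base composition, which bears on the chromosome pattern. Divided into quintiles by the GC content within 100 bp to either side of the control summit, sites in the lowest quintile (median 35.8% GC) had a peak in CTCF siRNA replicate 1 at 42.8% and in replicate 2 at 52.8%. In the highest quintile (median 60.7% GC) the order was reversed, at 76.2% and 64.5%. The share kept in both libraries rose from 38.8% to 62.6% over these quintiles, where strength alone would give 42.9% and 56.9%. The direction was common to both libraries but its size was not, and the part of GC in the chromosome differences was not tested.

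Most control sites hold a recognisable CTCF motif, and kept sites held one more often. The motif was searched as the 14-letter core of the CTCF consensus with up to 2 mismatches, on both strands, within 100 bp of the control summit. It was found at 83.3% of kept sites (82.7 to 83.9) and 59.3% of lost sites (58.5 to 60.1), a difference of 24.02 points, and at 54.8% of sites with a peak in neither CTCF siRNA library. Windows of the same length centred 1000 bp to either side held it at 5.34%. At the median the motif centre lay 17.5 bp from the summit at kept sites and 19.5 bp at lost sites. Strength and motif go together, yet within deciles of strength the difference still averaged 15.5 points. In the shortened lists it was 14.3 points. In decile 5, 83.4% of kept and 67.1% of lost sites held the motif. Decile 1 was the exception to this direction, at 34.6% of 260 kept and 46.0% of lost sites.

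The kept share followed how closely the motif matched. Of the 3582 sites with no mismatch 79.0% were kept (77.6 to 80.3), against 62.0% with 1 mismatch, 49.7% with 2 and 30.3% with 3 or more. Strength alone would give 67.7%, 58.8%, 51.3% and 36.8%. In decile 5 of fold enrichment the shares were 62.0%, 49.1% and 40.3% for 0, 1 and 2 mismatches. Signal was not fully level within that decile. Median depth-scaled pileup was 28.9 and 35.4 at its kept sites, against 25.6 and 30.9 at its lost sites, in control replicates 1 and 2. The part of this remaining difference in the shares was not tested.

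The motif core can carry a CG dinucleotide at its positions 12 and 13, counted from 1 at the 5′ end of the core. CG is the dinucleotide at which human DNA is methylated, which was not measured in these libraries. CG there matches the consensus at both positions, whereas motifs without it include those with a mismatch at either position. The 2 classes therefore overlap with the number of mismatches, and they were not compared at equal numbers. Sites with CG at positions 12 and 13 were kept at 75.8% of 5200 (74.6 to 76.9), and motif-bearing sites without it at 54.8% of 16660 (54.0 to 55.6). In CTCF siRNA replicate 1 the shares with a peak were 83.3% and 63.4%, and in replicate 2 they were 79.1% and 61.5%. Median strength was 16.4 with CG and 14.4 without, and strength alone would give 62.2% and 55.6%. The difference was seen in all deciles of strength, with 68.1% against 41.7% in decile 5 and 81.5% against 55.01% in decile 6. It was also seen in all quintiles of GC content, with 65.1% against 42.2% in the lowest and 75.9% against 64.6% in the highest.

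**Figure D5:**
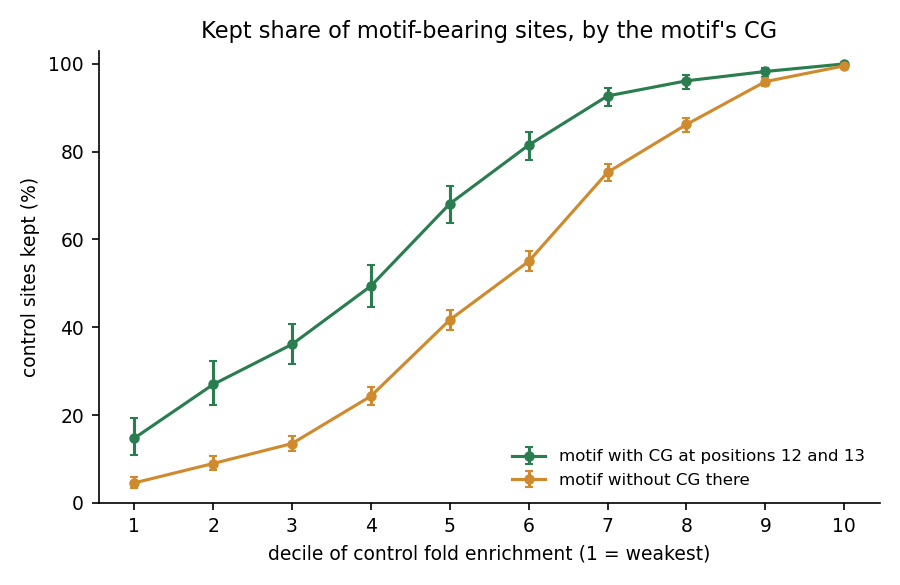
Share of motif-bearing control sites kept (%, vertical axis) against deciles of control fold enrichment (horizontal axis, 1 = weakest), for motifs with CG at positions 12 and 13 of the core (green) and without (orange). Bars are 95% Wilson intervals. The green line lies above the orange one throughout, by 26.5 points in decile 6 and 0.44 points in decile 10.

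Neighbouring motif-bearing sites were compared by the orientation of their motifs, since loops form mainly between convergent ones. Both sites were kept in 35.4% of 5497 convergent pairs (34.1 to 36.7), 39.5% of 5500 divergent pairs (38.3 to 40.8) and 36.1% of 10840 pairs on the same strand. Strength alone would give 32.5%, 34.4% and 32.9%. Divergent pairs were also the closest together, with a median gap of 46168 bp against 94095 bp for convergent pairs.

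Sites between genes were kept more often than sites in introns or in exons of coding genes. Intergenic sites were kept at 56.6% of 10727, introns at 48.7% of 17213, untranslated regions of coding genes at 48.4% of 1170, coding exons at 38.9% of 571 and exons of non-coding genes at 54.7% of 841. Strength alone would give 53.7%, 50.1%, 50.9%, 45.5% and 53.5%. Coding exons had the lowest kept share, but here the CTCF siRNA libraries differed most, with peaks at 55.9% in replicate 1 and 42.9% in replicate 2. By distance to the nearest start of a coding gene, the kept share was 46.8% within 1000 bp, 55.0% up to 10000 bp and 55.6% up to 50000 bp, and 41.2% beyond 200000 bp. Promoter-near sites had the lowest motif share of these classes, at 54.3%.

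The sites with the highest control fold enrichment show what full retention looks like. The strongest kept site, chr17:17259102-17259782, lies between genes with NT5M as the nearest coding start, and had a fold enrichment of 68.1 and 81.4 in the controls and 77.3 and 83.0 after CTCF siRNA. The next, chr6:32383066-32383726, lies near BTNL2 in the major histocompatibility complex and gave 72.2 and 73.3 in the controls and 74.1 and 74.9 after CTCF siRNA. At chr5:110493674-110494269, with CAMK4 as the nearest coding start, the values were 65.5 and 74.5 against 78.0 and 69.1. A site in an intron of a non-coding gene near MUC4, chr3:195577591-195578268, gave 65.3 and 73.9 against 71.7 and 73.9. In these 4 sites the groups overlapped by depth-scaled pileup. The remaining member of this set differed. At chr6:133889958-133890540, where TCF21, a transcription factor of mesenchymal cells, has the nearest coding start 320080 bp away, the control values were 61.6 and 83.4 and both CTCF siRNA values were lower, at 38.3 and 48.9.

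Strong control binding did not ensure retention. The strongest site with a peak in neither CTCF siRNA library, chr3:157164801-157165268, lies in an intron of VEPH1 and 10363 bp from the start of PTX3, which codes for a secreted pentraxin of innate immunity. It had a fold enrichment of 29.0 and 24.4 in the controls, from pileups of 54 and 40 reads. Intronic sites in HERC3 (25.3 and 24.4), NEGR1 (26.4 and 23.2) and SCN8A (23.7 and 25.6) and an intergenic site on chromosome 21 (23.7 and 25.6) complete the 5 strongest. All are in decile 9, of which 22 of 3052 sites, 0.721%, had a peak in neither library.

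The motifs of these sites are printed to let the retained and the lost be compared letter by letter. Each line gives 30 bases of hg19, 5′ to 3′ on the strand of the motif, with the 14-letter core in capitals, and the position given is that of the core.

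Kept, near BTNL2, chr6:32383396-32383409, plus strand: acacatggCCAGTAGATGACAGgtttgttc

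Kept, CAMK4 region, chr5:110494001-110494014, plus strand: acattgtgCCAGTAGATGACGAcaccatct

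Kept, near MUC4, chr3:195577944-195577957, minus strand: cacactgtCCACTAGGGGACATcactgtcc

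Peak in neither, VEPH1 intron, chr3:157165009-157165022, minus strand: tgacttcaCCAGTAGATGCTGCtgtgaagt

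Peak in neither, NEGR1 intron, chr1:72652589-72652602, plus strand: ttcattcaCCACTAGAGGGAAGtgatatcc

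Peak in neither, SCN8A intron, chr12:52072073-52072086, minus strand: tacttatgTCAGCAGGGGGGAGcatagagc

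All of these carry 1 or 2 mismatches to the consensus, and the cores of the kept and the lost sites do not separate by that count. The other strongest kept sites (NT5M and TCF21 regions) and the HERC3 and chromosome 21 sites held no match with up to 2 mismatches in the window.

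The weakest kept sites were of another kind. The lowest, chr7:157253892-157254383, had a fold enrichment of 1.51 and 1.90 in the controls and 1.45 and 1.78 after CTCF siRNA, from pileups of 227 and 231 against 246 and 245 reads. Its local background was 150 and 121 reads in the controls, far above the genome-wide value. An intron of ANAPC7 (local background 53.3 and 43.2 reads), an intergenic site on chromosome 11 (132 and 92.3), a site at the very start of chromosome 1 (31.0 and 23.4) and a site on chromosome 21 (61.1 and 47.6) followed, and none of the 5 held the motif. In decile 1 as a whole, kept sites had a median local background of 3.88 reads in control replicate 1 and lost sites 1.07. Kept sites there had a depth-scaled pileup of 25.6 against 13.4. Ranking by depth-scaled pileup in place of fold enrichment raised the difference between deciles 10 and 1 to 97.2 points.

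Few sites appeared only after CTCF siRNA. After CTCF siRNA, 16064 sites were shared by the replicates, of which 15705 (97.8%) also had a peak in both controls and 127 (0.791%) had a peak in neither. These gained sites were weak, with a median fold enrichment of 5.82 in the CTCF siRNA libraries, and 15 (11.8%) held the motif. Their number depended on the libraries used, at 179 without control replicate 1, 307 without control replicate 2, 362 without CTCF siRNA replicate 2 and 494 without CTCF siRNA replicate 1. In the shortened lists it was 1212, and 726 sites had a peak in either CTCF siRNA library and in neither control.

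The strongest gained site, chr2:25352221-25352499 in an intron of EFR3B, had a fold enrichment of 13.4 and 13.3 from pileups of 27 and 24 reads. An intron of MCTP2 (8.55 and 14.2), an intergenic site with UBXN2B as the nearest coding start (10.5 and 10.1), an intron of COL18A1 (10.9985 and 9.04) and an intergenic site with KCNN2 as the nearest coding start (8.55 and 10.97) followed. COL18A1 codes for a basement membrane collagen, and its site was the one among these 5 with a motif match.

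Gained, COL18A1 intron, chr21:46859476-46859489, minus strand: gggaccggCCGCCAGGGGGAGCcagaggcc

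Genes were grouped in lists, and control sites within 10000 bp of a listed gene's start were counted. Over all coding genes 7070 control sites lay that close, of which 53.1% were kept, 1062 had a peak in 1 CTCF siRNA library and 2253 in neither. All lists are small beside this, and none is called different from it here. For the sites near all coding genes, strength alone would give 52.1% kept. For the lists it would give 51.5% (fibroblast matrix and identity), 50.4% (lung mesenchyme), 67.7% (lung epithelium) and 53.5% (imprinted genes). It would give 51.5% in the HOX clusters, 47.3% for chromatin architecture and 42.2% for housekeeping genes.

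Genes of fibroblast matrix and identity had 33 such sites, of which 16 (48.5%) were kept, 6 had a peak in 1 library and 11 in neither, beside 51.4% kept over all control sites. Their median strength was 13.96. The strongest kept one, chr7:73440957-73441535, lies 808 bp from the start of ELN, the gene of elastin, and had a fold enrichment of 42.2 and 50.0 in the controls and 54.7 and 40.7 after CTCF siRNA. The groups overlapped. The strongest with a peak in neither library, chr17:48275610-48275997, is a coding exon of COL1A1, the main fibrillar collagen gene of fibroblasts, with 15.8 and 15.0 in the controls. COL1A1 holds all outcomes within a few kilobases. Beside that exon, a site 954 bp from the start was kept (15.8 and 19.7 against 9.56 and 8.94), and a site 6271 bp from it had a peak in CTCF siRNA replicate 1 alone. Like these other COL1A1 sites, the following genes were picked after their values were seen. VIM, the intermediate filament gene of mesenchymal cells, had 3 sites with a peak in neither library, in deciles 6, 4 and 1 of strength. PDGFRA, a growth factor receptor of fibroblasts, had 3 sites that were all kept, in deciles 9, 5 and 9. VIM and PDGFRA were not compared at equal strength.

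Kept, ELN, chr7:73441309-73441322, minus strand: gctggtggCCAGGAGGGGGCGGcctgcact

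Peak in neither, COL1A1, chr17:48275775-48275788, minus strand: atggtgagCCAGCAGGGGGAGCatggatga

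Both cores carry 1 mismatch. The ELN core has the CG at its positions 12 and 13, and the COL1A1 core does not.

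Transcription factors and ligands of lung mesenchyme had 19 sites, with 10 kept (52.6%), 3 with a peak in 1 library and 6 in neither. GLI1, a transcription factor of hedgehog signalling, supplied both named sites. The kept site, chr12:57856376-57856885, is in its intron and gave 32.7 and 42.9 in the controls and 37.8 and 36.7 after CTCF siRNA. The site with a peak in neither library, chr12:57849909-57850473, lies in a coding exon of the neighbouring INHBE, 3473 bp from the GLI1 start, with 9.23 and 11.6 in the controls. The next 3 items were chosen after their values were seen. A site 539 bp from the GLI1 start had a higher fold enrichment in the CTCF siRNA libraries (63.6 and 39.9) than in the controls (26.5 and 26.3), but the groups overlapped by depth-scaled pileup. FOXF1, which is needed for lung mesenchyme and vessels, had 2 sites, in deciles 6 and 9 of strength, and both were kept. BMP4, a growth factor of lung branching, had 2 with a peak in neither library, both in decile 1.

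Kept, GLI1 intron, chr12:57856617-57856630, minus strand: tgcagtgtCCAGCAGAGGGAGCcctagcca

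Peak in neither, INHBE exon, chr12:57850095-57850108, minus strand: ccctcaagCCACTAGAGGGCAGagttaagg

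The lost member of this pair is the one with no mismatch to the consensus, and the kept one has 1.

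Genes of the lung epithelium, the tissue next to which these fibroblasts normally lie, had 9 sites, of which 6 were kept, 1 had a peak in 1 library and 2 in neither. Strongest among the kept was chr12:50360600-50361717 near AQP5 and AQP6, genes of water channels, with 26.4 and 30.6 in the controls and 41.1 and 31.9 after CTCF siRNA. By depth-scaled pileup, at 56.8 and 76.6 against 77.9 and 66.9, the groups overlapped. The strongest site with a peak in neither library lies 2007 bp from SFTPA1, a surfactant protein gene, with 11.6 and 12.5 in the controls. FOXJ1, the regulator of motile cilia, was chosen after its values were seen, and it had a kept site with 23.7 and 23.2 in the controls and 6.13 and 4.94 after CTCF siRNA.

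Imprinted genes had 13 sites, with 8 kept (61.5%), 2 in 1 library and 3 in neither. Strongest among the kept was chr11:2172652-2173614 in an intron of IGF2, the fetal growth factor gene, with 34.0 and 32.9 in the controls and 40.7 and 31.4 after CTCF siRNA. All 3 IGF2 sites were kept. H19, also chosen after its values were seen, is the non-coding RNA gene beside the imprinting control region at which CTCF insulates IGF2. Its sites 2365 and 1524 bp from the start had weak control peaks (6.78 and 7.26, and 8.06 and 9.88) and a peak in CTCF siRNA replicate 1 alone. The strongest site with a peak in neither library lay 49 bp from the start of DIRAS3, a maternally imprinted tumour suppressor, with 7.90 and 9.53.

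In the HOX clusters, whose genes set positional identity, 12 of 19 sites were kept (63.2%), 3 had a peak in 1 library and 4 in neither. The strongest kept member, chr17:46695879-46696501 in the HOXB7 locus, had 35.8 and 35.7 in the controls and 38.0 and 31.8 after CTCF siRNA. The strongest with a peak in neither library, chr17:46690583-46690880, is 5429 bp away, summit to summit, in a coding exon, with 12.1 and 7.15. A site 326 bp from the start of HOXA10, chosen after its values were seen, had a higher fold enrichment in the CTCF siRNA libraries (22.5 and 15.4) than in the controls (8.96 and 12.2), but the groups overlapped by depth-scaled pileup.

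Kept, HOXB cluster, chr17:46696106-46696119, minus strand: cagagcagCCGCTAGATGGCACccttgctc

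Clustered protocadherins code for neuronal cell adhesion proteins, and CTCF binds at their alternative promoters. They had 19 sites, of which 13 (68.4%) were kept, 2 had a peak in 1 library and 4 in neither, at a median strength of 9.08. The deciles of strength alone would give 29.0%, and the shares with a peak were 78.9% in CTCF siRNA replicate 1 and 68.4% in replicate 2. All 19 lie in 1 stretch of chromosome 5 and belong to genes that are near copies of each other, where the authors' discarding of ambiguous reads could lower the signal, and the sites are not independent. The strongest kept promoter site lies 76 bp from the start of PCDHGB7, with 13.2 and 18.5 in the controls and 20.1 and 19.5 after CTCF siRNA. The strongest with a peak in neither library is in a coding exon at PCDHA5, with 7.90 and 7.74.

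Peak in neither, PCDHA5, chr5:140201814-140201827, plus strand: cgcggtttCCGCTAGAGGGCGCgtcggatt

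Cell cycle and senescence genes had 14 sites, with 6 kept (42.9%), 3 in 1 library and 5 in neither. Their median strength was 9.31, and strength alone would give 30.3%. The strongest site with a peak in neither library lies 9282 bp from CDK1, the mitotic kinase gene, with 10.9 and 10.1. Genes of chromatin architecture itself had 11 sites, with 5 kept (45.5%), 2 in 1 library and 4 in neither. In that list PDS5A, a cohesin-associated factor, kept its site (17.3 and 24.8 against 17.7 and 13.8), and YY1, a zinc-finger factor of enhancer and promoter contacts, had the strongest lost one (22.2 and 22.1). Housekeeping genes had 15 sites, with 7 kept (46.7%), 3 in 1 library and 5 in neither. There the GAPDH site was kept, with 22.3 and 20.2 in the controls and 8.62 and 5.36 after CTCF siRNA. Its depth-scaled pileup was 47.9 and 50.1 against 28.4 and 22.7. Its local background was 0.969 and 0.732 reads in the controls and 2.71 and 2.92 reads after CTCF siRNA. A site in HSP90AB1, a chaperone gene, had 14.7 and 12.8 in the controls and a peak in neither CTCF siRNA library.

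Kept, GAPDH intron, chr12:6647210-6647223, minus strand: tgagccagCCACCAGAGGGCGCcagaccct

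Peak in neither, YY1 intron, chr14:100713354-100713367, minus strand: ttcttttcCCACTAGGGGGAGTcagttgtt

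Peak in neither, HSP90AB1, chr6:44221424-44221437, minus strand: actagacaCCAGCAGGGGGAGCcaggtggg

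The kept and lost classes also differed in libraries that had no part in defining them. In IMR90 cells processed with the low-cell protocol, a peak in both control libraries was present at 80.7% of kept and 18.7% of lost sites. Part of this gap went with strength, since within decile 5 the shares were 69.8% and 27.5%. The CTCF siRNA libraries of that protocol had a peak at 27.8% and 10.8% of kept sites and at 0.614% and 0.121% of lost sites. In LNCaP prostate cancer cells, both control libraries had a peak at 96.0% of kept and 61.8% of lost sites, and the CTCF siRNA libraries at 19.5% and 40.2% of kept sites against 0.654% and 2.38% of lost sites. In decile 5 of strength the LNCaP CTCF siRNA libraries had a peak at 10.2% and 21.1% of kept and 0.677% and 2.26% of lost sites. These lists were called from separate libraries of other depth, so the shares are set side by side and the levels are not compared.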

How the data were processed

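CTCF ChIP-seq peak lists of 4 IMR90 libraries were analysed, grouped by their sample titles and cell line labels. The protocol text of these samples names LNCaP where the other labels name IMR90, and the latter was followed. Per the study's methods, the authors mapped 50-bp single-end reads to hg19 with Bowtie, discarded ambiguous and clonal reads, and called peaks in each library separately with MACS2 at a false discovery rate of 0.05 and a fragment length of 200 bp. No input library is named. The deposited lists give, for each peak, a ratio (fold enrichment, which is the summit pileup plus 1 over the local background plus 1) and −log10 p-values and q-values. The columns hold no read totals, so depth is known only as recovered. Summit pileup and local background were solved from the deposited fold enrichment and −log10 p-value of each peak under the caller's Poisson model, and a whole-number pileup reproduced every p-value to within 0.001 (100% of peaks in each library). Local background took the same steps relative to the genome-wide value in both libraries of a group and other steps in the other group. The commonest step above it was 1.08 times in the controls and 1.66 times in the CTCF siRNA libraries.

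Analyses used chromosomes 1 to 22 and X, Python 3.11.15, numpy 2.4.6, pandas 2.3.3, scipy 1.17.1 and pysam 0.24.0, with GENCODE release 44 lifted to the same build as the files. Functions for overlap, ranking and recovery were tested on simulated data. Libraries were compared by exact permutation tests, and the 95% Wilson intervals of shares reflect counting error alone. The study calls its replicates biological. Sites are not replicates, so no p-values were computed over sites. For single sites, the share that strength alone would give is the mean of the deciles' kept shares over the sites in question. For pairs of sites it refers to both being kept. Within every decile, kept sites still had a higher median depth-scaled pileup than lost sites in both controls, so signal is not fully held level. Named sites were the 5 strongest and 5 weakest kept, the 5 strongest with a peak in neither CTCF siRNA library, the 5 strongest gained, and per gene list the strongest kept site and the strongest with a peak in neither. One site that this rule names is not reported here. Chromosomes with the 3 highest and 3 lowest kept shares were named. The members and lists were chosen with earlier results of these data known. Cell identity cannot be checked from CTCF peaks, histone peak lists of the series were not used here, and alternatives are given in the closing section.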

Additional observations from a re-analysis of the deposited data

How the results depend on the processing

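No difference or ratio changed direction under any alternative, while shares, counts of gained sites and the spread over chromosomes have no direction to change. Of 121 alternative values, 69 stayed within the spread between replicates (for gained sites, within 1.5 times the count). With the replicate block, in which libraries are paired by replicate number, the mean difference in peaks was -17447 and the exact permutation p was 0.50, the smallest that 2 pairs allow. Leaving out libraries gave differences from -18032 to -16862 peaks. It gave kept shares from 43.1% to 59.9961%, shares with a peak in neither library from 40.0% to 43.95%, and 179 to 494 gained sites. It gave strength ratios of kept over lost sites from 2.15 to 2.62, width differences from 102 to 121 bp, differences between the highest and lowest decile from 86.2 to 93.1 points, log2 changes at kept sites from -0.53 to -0.41, and motif differences from 24.1 to 30.4 points. Counting a peak in either CTCF siRNA library as kept gave a kept share of 66.1%, 726 gained sites, a decile difference of 81.8 points, a log2 change of -0.55 and a motif difference of 25.5 points. Lists shortened to the 18533 peaks of smallest p-value gave a kept share of 81.2%, 7.44% with a peak in neither library and 1212 gained sites. The strength ratio was then 1.39, the width difference 45.5 bp, the distance difference -9311.5 bp, the decile difference 44.1 points, the log2 change -0.51 and the motif difference 14.3 points, in lists that hold fewer weak control peaks by construction. With lost taken as a peak in neither library, the ratio was 2.42, the width difference 118 bp and the motif difference 28.5 points. The decile difference was 88.9 points with quintiles, 95.5 with −log10 p-values and 97.2 with depth-scaled pileup as strength. The log2 change was -0.63 by pileup. The motif difference was 26.0 points with 1 mismatch, 26.7 in a 50-bp window, 23.5 with summits within 100 bp and 23.8 at q-values up to 0.001. Within deciles of strength, the differences averaged 15.5 points for the motif, 27.7 bp for width and -2293 bp for distance. Deciles counted alike in these means, although decile 10 held 14 lost sites. The alternative within deciles, like the ranking by pileup, was chosen after seeing the data. With chromosome Y added, the spread over chromosomes was 56.1 points, and other contigs did not enter it. Chromosome Y and those contigs together held 2 to 6 peaks a library. The limits are the calling threshold, which hides how far binding fell at lost sites, and 2 libraries a group.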
